A study of Mus musculus with 12 samples.

Results

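The cytosolic ribosomal protein genes were described in RAW 264.7 cells, an adherent mouse macrophage line transformed by Abelson murine leukemia virus. A row of the value table, which is 1 transcript cluster on the array, belonged to the set when its only gene symbol was an Rpl or Rps name followed by a number and at most 1 of the letters a, l, x or y, or was Rplp0, Rplp1, Rplp2 or Rpsa. Pseudogenes with -ps in the symbol were left out. The rule found 104 of 41345 rows, 62 for the large subunit and 42 for the small subunit. They carried 64 symbols, 40 large and 24 small. Cells were grown to confluency and collected 48 h after transfection with pre-miR-223 (a mimic supplying miR-223), with anti-miR-223 (its inhibitor) or with a scramble control oligonucleotide of no relevance. Each of these 3 groups had 4 arrays titled as biological replicates. All 3 share the cell line and the transfection, and no untransfected cells were analysed here. The line is a single transformed line, and the labels do not say whether the replicates were separate cultures, so p-values measure the spread between these arrays.

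The cytosolic ribosome joins a small subunit, which reads the mRNA, to a large subunit, which forms the peptide bond, and each ribosome carries 1 copy of nearly every ribosomal protein. Most ribosomal protein mRNAs begin with a C followed by an unbroken run of pyrimidines, the 5′ terminal oligopyrimidine (TOP) motif, through which their translation is turned up or down together downstream of mTOR. miR-223 is abundant in myeloid cells and lowers its targets by pairing its seed, bases 2 to 8, with sites in their mRNAs. Array values report mRNA and not translation or protein.

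The 2 arms of the transfected microRNA are shown first, because the comparisons add or block its activity. They are the RefSeq mature sequences (GRCm38.p6), with the seed in capitals, and the labels do not state which arm the mimic carried.
mmu-miR-223-3p, chrX:96242884-96242905, plus strand: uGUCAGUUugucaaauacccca
mmu-miR-223-5p, chrX:96242842-96242864, plus strand: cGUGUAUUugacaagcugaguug

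Start regions of 8 ribosomal protein genes are shown because the genes are known for a shared start motif. Each is 60 bases of the RefSeq promoter table (GRCm38.p6) on the gene's own strand, 30 before the annotated start and 30 from it. Capitals mark an unbroken run of C and T that opens with a C at the start base and is at least 5 long, and Rpl34 and Rps9 have no such run at this annotated start.
Rps18, chr17:33955636-33955695, minus strand: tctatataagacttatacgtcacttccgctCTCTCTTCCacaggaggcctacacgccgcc
Rps27, chr3:90213619-90213678, minus strand: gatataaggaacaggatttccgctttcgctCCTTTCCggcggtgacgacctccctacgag
Rps6, chr4:86857338-86857397, minus strand: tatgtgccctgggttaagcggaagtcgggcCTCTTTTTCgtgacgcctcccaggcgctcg
Rpl28, chr7:4792935-4792994, plus strand: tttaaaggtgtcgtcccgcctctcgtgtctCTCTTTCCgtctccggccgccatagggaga
Rpl15, chr14:18270957-18271016, minus strand: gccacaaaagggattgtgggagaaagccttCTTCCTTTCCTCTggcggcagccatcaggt
Rpl38, chr11:114668550-114668609, plus strand: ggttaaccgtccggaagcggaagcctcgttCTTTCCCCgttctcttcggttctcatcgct
Rpl34, chr3:130730308-130730367, minus strand: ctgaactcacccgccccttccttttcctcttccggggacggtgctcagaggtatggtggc
Rps9, chr7:3704011-3704070, plus strand: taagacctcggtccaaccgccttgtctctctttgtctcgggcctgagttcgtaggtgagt
Promoters were found for 49 of the 64 genes, 58 in all. The start run stood in 11 of the 58, or 19.0%, against 823 of 32851 promoters of all genes, or 2.51%. The run depends on the exact base taken as the start, so a promoter counted without it may have it at another start. CTTCCG or its reverse complement, searched on both strands of the 300-base window, stood in 34 of the 58 ribosomal protein promoters, or 58.6%, and in 16.9% of all promoters. TATAAA or its reverse complement stood in 5 of the 58, or 8.62%, and in 13.6% of all promoters. A start run followed by G can overlap a CTTCCG match, and a match describes the sequence only.

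The values were the deposited log2 signals, between 0.53 and 12.45 over the 12 arrays, and signal over background was not given with them. For each symbol the cluster with the highest mean was used, and genes whose mean lay above log2 2.01 were tested, 14611 in all. Macrophage markers read high, with a mean over the 8 listed genes of 7.80 to 8.01 in the scramble arrays, 7.63 to 7.97 in the pre-miR-223 arrays and 7.66 to 8.36 in the anti-miR-223 arrays. Of these markers Mrc1 lay below the tested level. Fibroblast and epithelial marker means stayed between 1.98 and 2.44 in every array, and none of the lymphoid markers reached the tested level. Anti-miR-223 replicate 4 stood apart. Its median correlation with the other arrays was 0.967 against 0.988 to 0.992 for the rest, and 629 of the tested genes differed over 2-fold from their mean there, against at most 37 in any other array.

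Of the 64 ribosomal protein genes 61 were tested, 38 large and 23 small. The other 3 were Rpl10l and Rpl32l of the large subunit and Rps15 of the small subunit, whose clusters lay below the tested level. Over 1 row stood for 24 of the genes, and some rows repeated the same values, so the 104 rows held 97 distinct ones. Rps12 had 6 identical rows, Rps19 had 2 and Rpl23a had 2. A gene's level on this array depends on its probes, and the tested clusters had means from 2.12 to 11.57 for the large subunit and from 2.15 to 11.39 for the small subunit. Means lay above log2 5 for 24 large and 15 small subunit genes, and under log2 3 for 8 and 4. Ribosomal protein genes have many processed copies in the genome, so probes of 1 gene may also read its copies, and 57 further rows that name several genes, 1 of them a ribosomal protein, were not used.

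Taken over the tested genes as a deviation from each gene's 12-array mean, the 4 scramble arrays lay above the mean and 3 of the 4 pre-miR-223 arrays below it. The median large subunit gene stood at 0.13, 0.21, 0.06 and 0.08 on the log2 scale in scramble replicates 1 to 4, at -0.14, 0.14, -0.17 and -0.31 in the pre-miR-223 replicates and at 0.05, -0.08, 0.13 and -0.05 in the anti-miR-223 replicates. The median small subunit gene stood at 0.07, 0.18, 0.10 and 0.09 in scramble, at -0.10, 0.13, -0.13 and -0.24 with pre-miR-223 and at 0.11, -0.04, 0.14 and -0.26 with anti-miR-223. Pre-miR-223 replicate 2 read with the scramble arrays, so the groups overlapped for both subunits. Within the pre-miR-223 group replicate 2 was the highest array for 48 of the 61 genes, and replicate 4 the lowest for 40. Over all 12 arrays the lowest was anti-miR-223 replicate 4 for 22 genes and pre-miR-223 replicate 4 for 21. Because the arrays measure bulk RNA and were normalised to each other, fewer expressing cells and less RNA per cell cannot be told apart, and a shared change in total RNA cannot be seen.

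**Figure D1:**
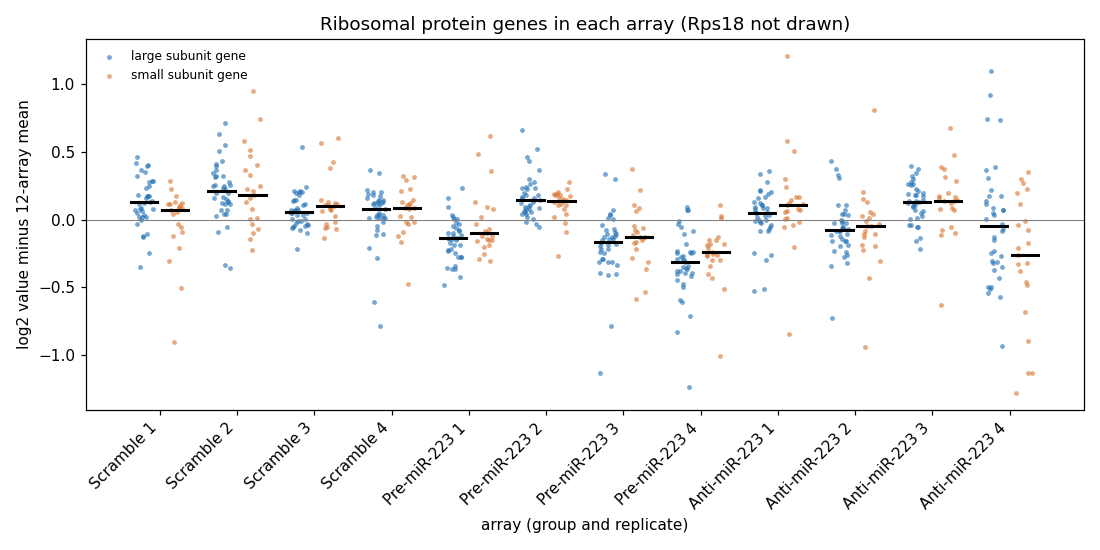
Each point is 1 tested ribosomal protein gene in 1 array, as its log2 value minus its mean over the 12 arrays, with large subunit genes in blue, small subunit genes in orange and a black bar at the median. Rps18, whose range is far wider, is not drawn but enters the medians. The bars lie above 0 in every scramble array and in pre-miR-223 replicate 2, and below 0 in pre-miR-223 replicates 1, 3 and 4.

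The subunits read alike in 11 of the 12 arrays. The large subunit median minus the small subunit median lay between -0.07 and 0.06 on the log2 scale in those arrays and was 0.21 in anti-miR-223 replicate 4. In that array the median over all 4919 tested genes above log2 5 was 0.25, whereas ribosomal protein genes above log2 5 stood at -0.19 for the large and -0.32 for the small subunit. Over all tested genes above log2 5, the medians ran from -0.0024 to 0.15 in scramble and were -0.07, 0.08, -0.11 and -0.15 in pre-miR-223 replicates 1 to 4, so the order of the pre-miR-223 arrays was that of the ribosomal protein genes. The part of this shared order in their differences was not tested.

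With pre-miR-223, against scramble, the median difference was -0.23 over the 38 large subunit genes and -0.19 over the 23 small subunit genes on the log2 scale, against -0.05 over all tested genes. The group mean was lower for 34 large and 19 small subunit genes, and for 65.2% of all tested genes. None passed the threshold of a Benjamini-Hochberg adjusted p under 0.05 in limma, where 0.00% of all tested genes passed and the lowest adjusted p was 0.921, also among ribosomal protein genes. At an unadjusted p under 0.05, 10 large and 2 small subunit genes were lower, with 3.85% of all tested genes, and 1 large subunit gene was higher, with 1.02%. An ordinary linear model gave 11 such genes in place of 13 and also none after adjustment. It gave 706 of all tested genes in place of 711 at that unadjusted threshold. The median 95% confidence interval reached 0.33 to either side of the difference, and the interval excluded a 2-fold difference in either direction for 55 of the 61 genes and a 1.5-fold one for 37. The difference was lower for 24 of 24 large and 14 of 15 small subunit genes with a mean above log2 5, where 78.5% of all tested genes were lower. There the medians were -0.28 and -0.21, against -0.11 over all tested genes of that level. At lower levels they were -0.09 for 14 large and -0.08 for 8 small subunit genes.

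The count of 13 genes at an unadjusted p under 0.05 depended on single arrays. Leaving out 1 array of the pre-miR-223 group gave 7 for replicate 1, 26 for replicate 2, 4 for replicate 3 and 1 for replicate 4. Over all 14611 tested genes the count was 711 with every array, and 504, 1510, 455 and 314 in these fits, in the same order. In the scramble group, leaving out replicate 1 or 2 gave 3 each, with 496 and 385 of all tested genes. The count was 21 when anti-miR-223 replicate 4, which enters this comparison only through the shared spread, was left out, with 1371 of all tested genes. Without pre-miR-223 replicate 2 the median difference was -0.31 for the large and -0.26 for the small subunit, against -0.07 over all tested genes. Without replicate 4 it was -0.16 and -0.11, against -0.04.

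The 5 large subunit genes with the smallest p were Rpl9, Rpl29, Rpl10a, Rpl32 and Rpl34. Rpl9, which lies near the base of the ribosomal stalk, read 6.68, 7.28, 6.77 and 6.58 in scramble and 6.20, 6.73, 6.17 and 5.74 with pre-miR-223, a difference of -0.62 (95% CI -1.09 to -0.15; limma adjusted p = 0.921). Pre-miR-223 replicate 4 was the lowest of these arrays, and replicate 2 lay within the scramble range, so the groups overlapped. A second Rpl9 cluster, 17448295, with a mean of only 2.82, had a difference of 0.11. Rpl34 read 5.72, 5.72, 5.26 and 5.37 in scramble and 4.83, 5.78, 4.19 and 4.09 with pre-miR-223, a difference of -0.80 (95% CI -1.49 to -0.10). Replicates 3 and 4 stood over 1 log2 unit below the lowest scramble array, while replicate 2 was above the highest. Rpl29, a large subunit protein with no bacterial counterpart, read 11.19, 11.25, 10.90 and 11.03 in scramble and 10.55, 11.11, 10.63 and 10.31 with pre-miR-223, a difference of -0.45 (95% CI -0.79 to -0.11). Again 3 pre-miR-223 arrays lay below every scramble array and replicate 2 did not. A second Rpl29 cluster, 17521204, with a mean of 3.08, had a difference of -0.31. Rpl10a, the protein of the L1 stalk that contacts the leaving tRNA, had means of 8.08 ± 0.29 and 7.65 ± 0.27 (SD, n = 4), and Rpl32 of 9.84 ± 0.15 and 9.35 ± 0.45 (SD, n = 4). Their differences were -0.43 and -0.49 on the log2 scale.

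Rpl13 was the only ribosomal protein gene whose pre-miR-223 arrays all lay below all scramble arrays, where 2.20% of all tested genes were so ordered. It read 10.63, 10.65, 10.61 and 10.59 in scramble and 10.54, 10.56, 10.43 and 10.21 with pre-miR-223, a difference of -0.19 (SE 0.14), or -0.11 when pre-miR-223 replicate 4 was left out. Rpl27a was the only one ordered the other way, as 0.773% of all tested genes were, and the only one higher at an unadjusted p under 0.05. It read 3.27, 3.34, 3.31 and 3.28 in scramble and 3.40, 3.82, 3.69 and 3.38 with pre-miR-223, a difference of 0.27 (95% CI 0.04 to 0.51; limma adjusted p = 0.921). The scramble arrays lay close together, and pre-miR-223 replicate 4 lay just above them.

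Of the small subunit, Rps27l, Rpsa, Rps3, Rps9 and Rps4x had the smallest p. Rps27l, a close copy of Rps27 known as a target of p53, read 6.19, 6.31, 6.17 and 6.39 in scramble and 5.76, 6.29, 5.75 and 5.81 with pre-miR-223, a difference of -0.36 (95% CI -0.67 to -0.05). Rpsa, a protein of the small subunit also known as the laminin receptor precursor, read 9.73, 9.84, 9.43 and 9.55 in scramble and 9.29, 9.57, 9.31 and 9.15 with pre-miR-223, a difference of -0.31 (95% CI -0.57 to -0.04). In both genes 3 pre-miR-223 arrays lay below every scramble array and replicate 2 lay within the scramble range. Rps3, which lines the entry of the mRNA channel, read 8.99, 9.09, 8.70 and 8.73 in scramble and 8.48, 8.95, 8.48 and 8.52 with pre-miR-223, a difference of -0.27 (SE 0.14). The same 3 arrays lay below the scramble range. Rps9 and Rps4x had differences of -0.20 (SE 0.10) and -0.24 (SE 0.14), the latter -0.16 when scramble replicate 2 was left out. The limma adjusted p of all 5 was 0.921.

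**Figure D2:**
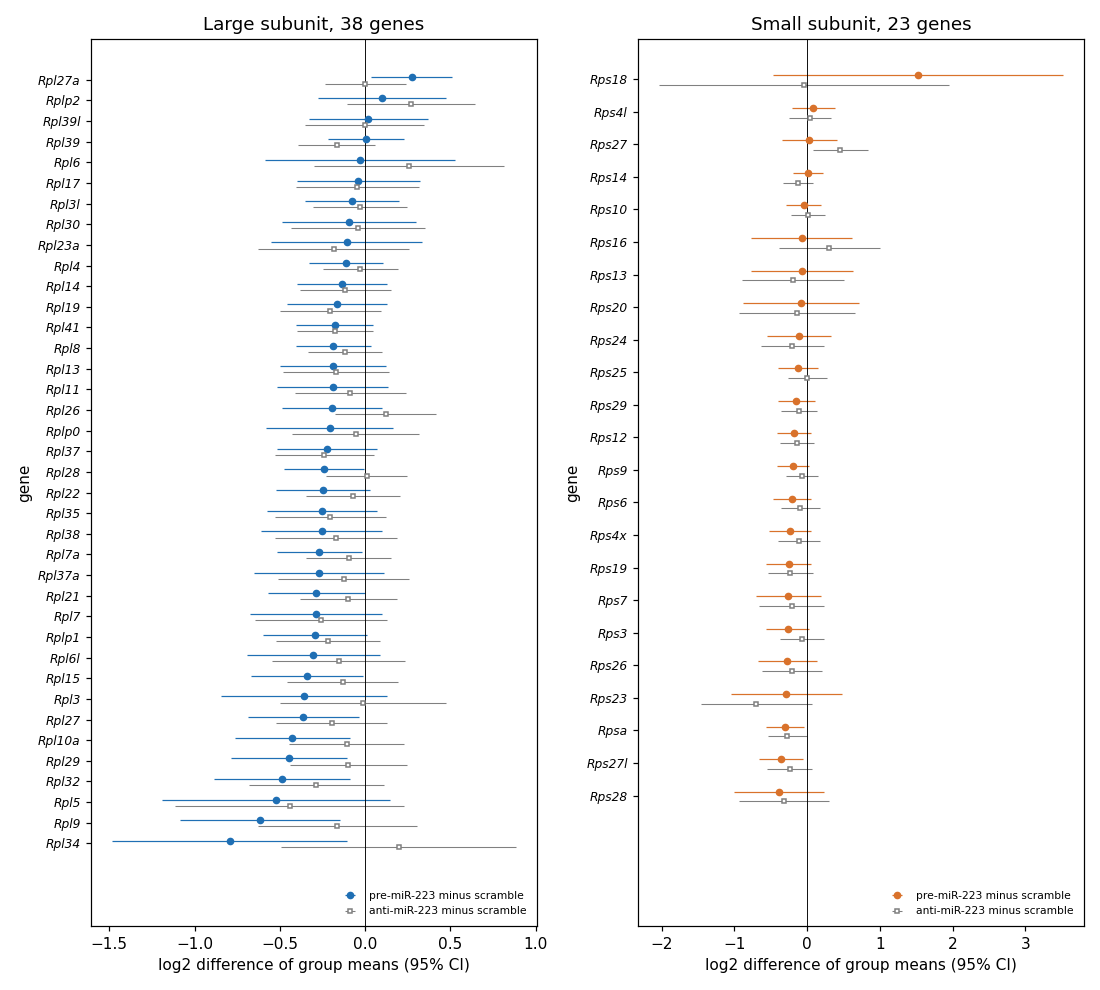
Difference between group means on the log2 scale, with the 95% confidence interval of the limma fit as a line, for the 38 large subunit genes (left) and 23 small subunit genes (right), pre-miR-223 minus scramble as filled circles and anti-miR-223 minus scramble as open squares, ordered by the former. Both differences use the same scramble arrays. Most circles lie left of 0, most intervals cross 0, and Rps18 on the right has an interval from -0.47 to 3.52.

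With anti-miR-223, against the same scramble arrays, the median difference was -0.11 for the large and -0.13 for the small subunit on the log2 scale, against -0.01 over all tested genes. The group mean was lower for 32 large and 18 small subunit genes, and for 52.5% of all tested genes. Of genes with a mean above log2 5, 22 of 24 large and 13 of 15 small were lower, with 60.1% of all tested genes of that level. None passed the adjusted threshold in limma, as 0.00% of all tested genes did, and an ordinary linear model gave none either. At an unadjusted p under 0.05, 1 gene was lower, with 1.35% of all tested genes, and 1 was higher, with 0.664%. The ordinary linear model gave 2 as well, with 368 of all tested genes in place of 294. The interval excluded a 2-fold difference in either direction for 58 of the 61 genes and a 1.5-fold one for 43. The count of 2 was 1 when any of these was left out: scramble replicate 1, replicates 1 and 3 of pre-miR-223, and replicate 2 of anti-miR-223. Over all tested genes it was then 251, 260, 269 and 308, in the same order. Without anti-miR-223 replicate 4 the medians were -0.06 for the large subunit and 0.0003 for the small subunit, with 11 of 23 small subunit genes lower. The median over all tested genes was then -0.05, near that of the large subunit. The large subunit median was -0.07 without anti-miR-223 replicate 2, against 0.0089 over all tested genes. Without replicate 3 the small subunit median was -0.19, against -0.0064.

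Rpsa was the gene lower at an unadjusted p under 0.05, and its anti-miR-223 arrays read 9.45, 9.22, 9.52 and 9.27, a difference from scramble of -0.27 (95% CI -0.54 to -0.0066). Replicates 2 and 4 lay below the scramble range and the others within it. A second Rpsa cluster, 17523177, with a mean of 5.55, had smaller differences from scramble, -0.07 with anti-miR-223 and -0.11 with pre-miR-223. Rps27, a zinc finger protein of the small subunit, was the higher one. It read 4.85, 4.67, 4.74 and 4.34 in scramble and 4.98, 4.94, 5.48 and 5.01 with anti-miR-223, a difference of 0.45 (95% CI 0.07 to 0.83; limma adjusted p = 1). Its groups did not overlap, as 0.520% of all tested genes did not in this direction, and replicate 3 was the highest. With pre-miR-223 Rps27 read 4.61, 4.97, 4.22 and 4.91, over a range that held all 4 scramble arrays. Rpl37 and Rpl41 were the genes whose anti-miR-223 arrays all lay below all scramble arrays, where 1.03% of all tested genes did. Rpl37 read 3.37, 3.61, 3.33 and 3.50 in scramble and 3.04, 3.22, 3.30 and 3.30 with anti-miR-223, and Rpl41, the smallest ribosomal protein, read 11.74, 11.69, 11.62 and 11.69 in scramble and 11.56, 11.54, 11.61 and 11.32 with the inhibitor. Their differences were -0.24 (SE 0.14) and -0.18 (SE 0.10), and that of Rpl41 was -0.12 when anti-miR-223 replicate 4 was left out. In the other clusters of Rpl41 these groups overlapped, with differences from -0.39 to -0.18.

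Rps23, a protein of the decoding centre, had the lowest small subunit difference. It read 4.15, 4.98, 4.42 and 3.92 in scramble, 4.65, 4.23, 4.41 and 3.03 with pre-miR-223 and 3.20, 3.10, 3.99 and 4.39 with anti-miR-223, a difference of -0.70 for anti-miR-223 against scramble (95% CI -1.46 to 0.07). Low values near 3 stood in anti-miR-223 replicates 1 and 2 and in pre-miR-223 replicate 4. Rpl39, which lines the exit tunnel, Rpl32, Rplp1, Rps27l and Rps19, whose human counterpart is mutated in Diamond-Blackfan anaemia, had differences of -0.17, -0.29, -0.22, -0.24 and -0.23, each with an interval that includes 0. Leaving out anti-miR-223 replicate 4 gave -0.13 for Rplp1, -0.14 for Rps27l and -0.10 for Rps19. Rps19 was at -0.13 when scramble replicate 2 was left out, and Rpl39 at -0.25 when anti-miR-223 replicate 3 was.

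Pre-miR-223 against anti-miR-223 shares its arrays with both other comparisons. The median difference was -0.09 for the large and -0.05 for the small subunit on the log2 scale, against -0.04 over all tested genes. Lower means stood in 31 large and 16 small subunit genes and in 62.8% of all tested genes, and above log2 5 in 22 of 24 and 12 of 15, with 71.5% of all tested genes. In limma 0 genes passed the adjusted threshold, with 0.00% of all tested genes, and 4 large and 1 small subunit genes were lower at an unadjusted p under 0.05, with 2.57% of all tested genes. Another large subunit gene was higher, with 1.05%, and an ordinary linear model gave 3 genes in place of these 6. Over all tested genes that model gave 530 in place of 528. The interval excluded a 2-fold difference for 57 of the 61 genes and a 1.5-fold one for 45. For 0 ribosomal protein genes did the pre-miR-223 arrays all lie below the anti-miR-223 arrays, as 0.972% of all tested genes did. The count of 6 was 13 when pre-miR-223 replicate 2 was left out, 2 for replicate 1, 2 for replicate 3 and 3 for anti-miR-223 replicate 1. Over all tested genes the count was 528 with every array, and 1147, 392, 366 and 791 in these fits, in the same order. Without anti-miR-223 replicate 4 it was 9, with 714 of all tested genes. The large and small subunit medians were -0.18 and -0.11 when pre-miR-223 replicate 2 was left out, against -0.06 over all tested genes. For its replicate 4 they were -0.04 and 0.0039, against -0.03. They were -0.15 and -0.15 when anti-miR-223 replicate 4 was left out, against -0.0084 over all tested genes. The small subunit median was -0.0078 for a fit lacking anti-miR-223 replicate 1 and 0.0059 for one lacking its replicate 3.

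Rpl34 had the smallest p, with 5.48, 5.30, 5.66 and 6.41 in the anti-miR-223 arrays. The pre-miR-223 mean differed from theirs by -0.99 (95% CI -1.68 to -0.30; limma adjusted p = 0.946). Anti-miR-223 replicate 4 was the highest of the 12 arrays for Rpl34, and pre-miR-223 replicate 2 lay among the anti-miR-223 arrays. Rpl26, a protein that also binds p53 mRNA, read 3.95, 4.21, 4.13 and 3.82 with pre-miR-223 and 4.41, 4.57, 4.15 and 4.25 with anti-miR-223, a difference of -0.31 (95% CI -0.61 to -0.02). Rpl28 read 10.83, 11.09, 10.83 and 10.62 with the mimic and 11.06, 11.08, 11.26 and 10.98 with the inhibitor, a difference of -0.25 (95% CI -0.49 to -0.01). Pre-miR-223 replicate 2 lay within the anti-miR-223 range in both genes, and its replicates 1, 3 and 4 were under that range. Rpl27a and Rpl29 had differences of 0.27 and -0.35. In the small subunit the differences were -0.42 for Rps27 (95% CI -0.80 to -0.04), -0.20 for Rps3, 0.13 for Rps14, -0.13 for Rps9 and 1.57 for Rps18. Leaving out anti-miR-223 replicate 4 gave 0.44 for Rps18 and -0.12 for Rps3. Leaving out pre-miR-223 replicate 2 gave -0.32 for Rps3 and -0.20 for Rps9, replicate 3 gave -0.27 for Rps27 and replicate 4 gave -0.07 for Rps9.

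Rps18, which sits at the head of the small subunit and is often used as a reference gene, had the widest range of all. Its tested cluster, 17547769, read 7.20, 7.21, 9.43 and 9.22 in scramble, 10.44, 8.21, 10.11 and 10.41 with pre-miR-223 and 9.44, 9.85, 8.75 and 4.83 with anti-miR-223. Pre-miR-223 replicates 1, 3 and 4 were the 3 highest of the 12 arrays and anti-miR-223 replicate 4 the lowest, while pre-miR-223 replicate 2 lay between the scramble arrays. The differences from scramble were 1.53 with pre-miR-223 (95% CI -0.47 to 3.52) and -0.05 with anti-miR-223 (95% CI -2.04 to 1.95). The latter was 1.08 when anti-miR-223 replicate 4 was left out, and 0.34 or 0.27 when scramble replicate 3 or 4 was. The other Rps18 clusters did not share the pattern and stayed between 1.89 and 2.98 in every array.

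The same 3 highest arrays, in any order among them, and the same lowest array stood in 3 further rows, a second cluster each of Rps9, Rpl4 and Rpl13. Cluster 17485586 of Rps9 read 6.62, 6.99, 8.13 and 7.95 in scramble, 9.17, 7.35, 8.71 and 9.22 with pre-miR-223 and 8.17, 8.27, 7.41 and 5.74 with anti-miR-223. Cluster 17548759 of Rpl4 read 6.86, 7.21, 8.98 and 8.53 in scramble, 10.24, 7.68, 9.70 and 10.26 with the mimic and 8.95, 9.65, 8.12 and 5.37 with the inhibitor. Cluster 17513856 of Rpl13 read 7.04, 7.05, 8.31 and 8.09 in scramble, 9.23, 7.48, 9.01 and 9.26 with the mimic and 8.32, 8.67, 7.72 and 5.12 with the inhibitor. The differences for pre-miR-223 against scramble were 1.19, 1.58 and 1.12 in these clusters, against -0.20, -0.11 and -0.19 in the tested cluster of the same 3 genes. In the tested clusters, leaving out pre-miR-223 replicate 4 gave -0.05 for Rpl4 and -0.11 for Rpl13, and leaving out scramble replicate 2 gave -0.06 for Rpl4. So 2 clusters that carry 1 gene name differed in sign, and which of them reads the gene's mRNA was not tested. Over the whole array, 264 of 41345 rows had these 3 highest arrays and this lowest array with a range over 2 log2 units, among 1773 rows with such a range. Of the 104 ribosomal protein rows 5 had such a range, these 4 and the tested row of Rpl34.

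**Figure D3:**
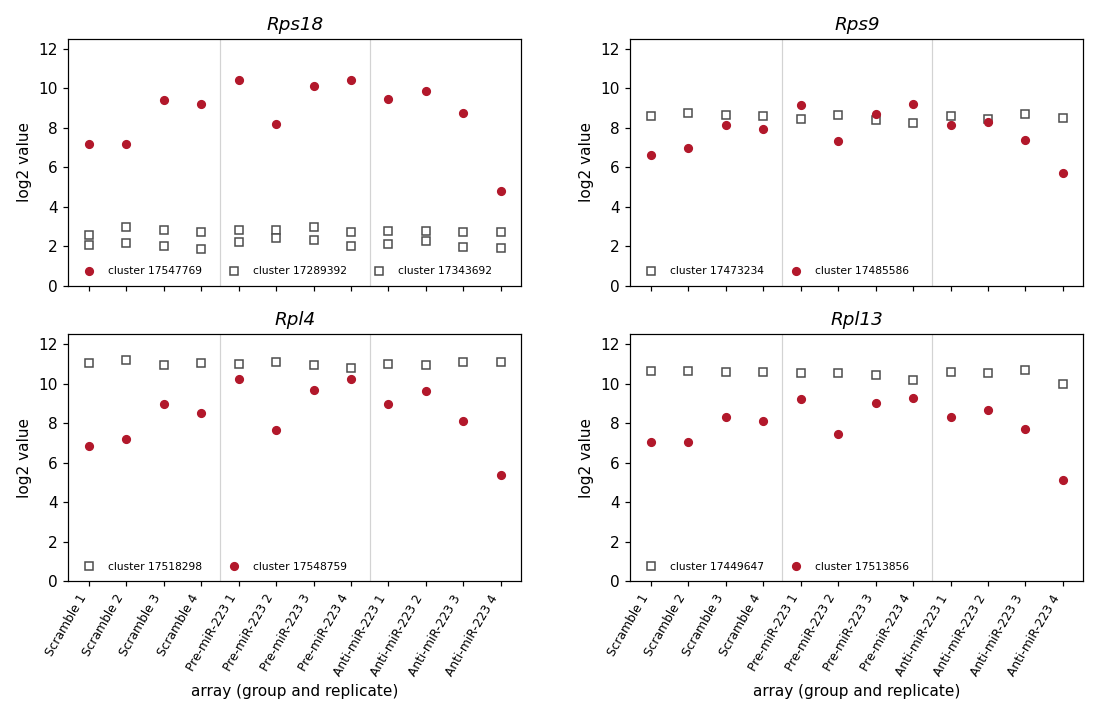
Log2 values in the 12 arrays for every cluster of Rps18, Rps9, Rpl4 and Rpl13, with the 4 clusters that share their 3 highest arrays and their lowest array as filled circles and the other clusters of each gene as open squares. Filled circles are highest in pre-miR-223 replicates 1, 3 and 4 and lowest in anti-miR-223 replicate 4, while the open squares stay nearly level.

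The other rows of tested genes were counted once for each distinct set of values, 33 in all. The pre-miR-223 mean was lower than the scramble mean in 24 of them. Above log2 5 it was lower in 12 of 16, and in 12 of 13 without the rows of Rps9, Rpl4 and Rpl13 described here, with a median difference of -0.22. At lower levels it was lower in 12 of 17, with a median of -0.08. These rows can share transcripts with the tested ones and are no separate evidence.

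Rpl5 and Rpl11, which with 5S RNA form the particle that binds Mdm2 when ribosome assembly fails, had tested clusters of low signal. Rpl5 read 3.24, 3.37, 2.97 and 3.01 in scramble, 2.41, 3.49, 2.05 and 2.56 with pre-miR-223 and 2.30, 2.10, 2.86 and 3.57 with anti-miR-223. The pre-miR-223 and the anti-miR-223 group each held values above and below the scramble range. The differences from scramble were -0.52 (SE 0.31) and -0.44 (SE 0.31). The first was -0.81 when pre-miR-223 replicate 2 was left out and -0.33 for replicate 3, and the second -0.73 when anti-miR-223 replicate 4 was left out and -0.24 for replicate 2. The differences of Rpl11 were -0.19 (SE 0.15) and -0.09 (SE 0.15). Leaving out pre-miR-223 replicate 3 or scramble replicate 4 gave -0.09 or -0.10 for the former, and the latter ran from -0.21 to 0.0039 over single arrays left out, with anti-miR-223 replicate 4 and scramble replicate 4 at the ends. The acidic stalk, which recruits elongation factors, is built of Rplp0, Rplp1 and Rplp2. Rplp0 had means of 7.47 ± 0.30 in scramble, 7.26 ± 0.23 with pre-miR-223 and 7.42 ± 0.28 with anti-miR-223 (SD, n = 4 each). Rplp1 had means of 10.89 ± 0.17, 10.59 ± 0.25 and 10.67 ± 0.19, and Rplp2 of 2.50 ± 0.40, 2.60 ± 0.04 and 2.77 ± 0.26, in the same order and with the same n. For pre-miR-223 against scramble the differences of the 3 stalk genes were -0.21, -0.30 and 0.10 with every interval including 0. That of Rplp2 was -0.06 when scramble replicate 4 was left out, which put all 3 on 1 side, and that of Rplp0 was -0.11 or -0.10 when pre-miR-223 replicate 4 or scramble replicate 2 was. Rps6, the substrate of the S6 kinases, had means of 11.49 ± 0.12, 11.28 ± 0.20 and 11.40 ± 0.17. Its differences from scramble were -0.21 (95% CI -0.47 to 0.05) with pre-miR-223 and -0.09 (95% CI -0.36 to 0.17) with anti-miR-223, the latter between -0.15 and -0.02 over single arrays left out. Rps13 was the third small subunit gene by range and read 7.44, 8.02, 8.50 and 8.17 in scramble, 8.07, 8.22, 7.77 and 7.76 with pre-miR-223 and 8.52, 7.84, 8.31 and 6.66 with anti-miR-223, with anti-miR-223 replicate 4 the lowest array.

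Of the paralogs named for tissue-restricted copies, Rpl10l, a testis copy of Rpl10, had means of 1.47 ± 0.06 in scramble, 1.47 ± 0.04 with pre-miR-223 and 1.54 ± 0.11 with anti-miR-223 and was not tested. Rpl3l, a muscle copy of Rpl3, had means of 2.15 ± 0.25, 2.08 ± 0.10 and 2.12 ± 0.14. Rpl39l, a copy of Rpl39 best known from testis, had means of 2.18 ± 0.27, 2.19 ± 0.28 and 2.17 ± 0.19, all near the tested level and with n = 4 arrays a group. Rps4l had means of 3.86 ± 0.18, 3.95 ± 0.24 and 3.90 ± 0.16. The widest difference from scramble among these 4 with pre-miR-223 was 0.08 on the log2 scale, in Rps4l, within the spread of its arrays. Rps27l and Rpl6l, which also carry the letter l, read well above the tested level in every array. The tested cluster of Rpl6 had a mean of only 3.05, and whether the Rpl6l cluster reads mRNA of Rpl6 was not tested. Rpl6l had means of 8.72 ± 0.09, 8.42 ± 0.34 and 8.57 ± 0.35.

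Genes with and without the start run were also compared for their differences. The 10 tested genes with the run had a median difference of -0.17 for pre-miR-223 against scramble, with 7 lower, and the 36 tested genes with a promoter but no run had -0.22, with 33 lower. For anti-miR-223 against scramble the medians were -0.07, with 6 lower, and -0.13, with 30 lower. Within the first class Rps18 had the highest difference with pre-miR-223 and Rps27 with anti-miR-223.

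Other genes of the translation machinery were described from lists, none of which held a gene past the adjusted threshold in limma. The ribosome-associated list, 4 tested, had a median difference of -0.30 for pre-miR-223 against scramble, all 4 lower, against -0.05 over all tested genes. It includes ribosomal proteins whose symbols the rule of the set does not match, such as Rps3a1. Fau, which carries ribosomal protein S30 fused to a ubiquitin-like part, had -0.40 (SE 0.15), and Rps3a1 and Rpl7l1 had -0.31 and -0.29. Elongation factors and other mRNAs known to carry a TOP motif had a median of -0.13, with 13 of 14 lower. Btf3, a subunit of the nascent polypeptide-associated complex, had -0.38 (SE 0.11), Eif3h -0.21 and Eef1d -0.21. The 1 higher gene, named after its values were seen, was Tpt1, the translationally controlled tumour protein, at 0.84 (SE 0.48), and its difference for pre-miR-223 against anti-miR-223 was 0.98 (SE 0.48). Factors of ribosome assembly had a median of -0.10, with 19 of 24 lower, and Nop10, a protein of the H/ACA complex that guides pseudouridylation, had -0.61 (SE 0.18), Polr1c -0.36 and Nhp2 -0.25. Genes that control ribosomal protein synthesis or its surveillance had -0.22, with 8 of 9 lower, among them Eif4ebp1, a translation repressor that mTOR inactivates, at -0.48 (SE 0.21).

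Mitochondrial ribosomal protein genes, which build a separate ribosome, had a median of -0.17, with 61 of 71 lower. Mrpl20, Mrpl32 and Mrpl12 had -0.48, -0.52 and -0.33. Ribosomal protein pseudogenes, 8 tested of 15, had -0.23, with 7 lower. The median over all tested genes also lay below 0, at -0.05, and at -0.11 above log2 5. The macrophage markers had a median of -0.20, with 6 of 7 lower. For anti-miR-223 against scramble the medians were -0.11 for the ribosome-associated, -0.10 for the elongation and TOP, -0.02 for the assembly, -0.09 for the control, -0.09 for the mitochondrial and -0.13 for the pseudogene list, from the same scramble arrays. For pre-miR-223 against anti-miR-223 they were -0.17, -0.07, -0.06, -0.13, -0.10 and 0.02 in that order.

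**Figure D4:**
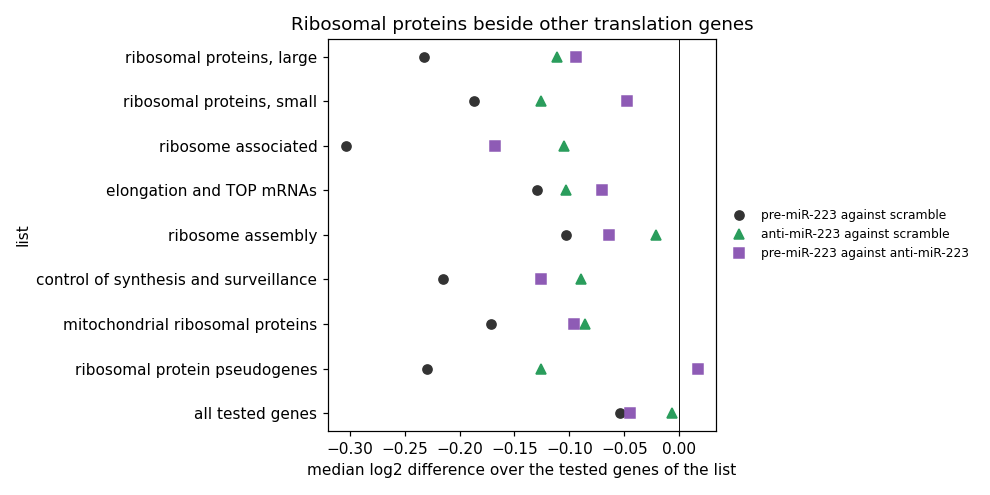
Median log2 difference of group means over the tested genes of each list. Circles show pre-miR-223 against scramble, triangles anti-miR-223 against scramble and squares pre-miR-223 against anti-miR-223. The circles of all listed groups lie left of that of all tested genes at -0.05, from -0.10 for ribosome assembly to -0.30 for ribosome-associated genes, and all tested genes above log2 5 had -0.11.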

How the data were processed

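The authors deposited 1 table of log2 values for 41345 transcript clusters on 12 arrays, normalised between arrays. RMA, Affymetrix Expression Console and Partek were used, per the submitters' processing notes, which give no version or role for them. Per the labels' protocols, total RNA was extracted with a miRNeasy kit and labelled with the WT PLUS kit. The base of the logarithm is not given in the sources used here and was taken as 2, the usual scale of RMA. The genome build of the clusters is not given in the sources used here, so they have no coordinates.

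Genes were named from the platform annotation through clusters with 1 symbol, 23521 of 25335 annotated, and all 64 member symbols matched RefSeq (GRCm38.p6). Of 81 protein-coding RefSeq symbols that the rule matches, 62 had a single-symbol cluster. For each symbol the cluster with the highest mean was kept if that mean exceeded the 40th percentile over all rows. Differences, intervals and p-values came from limma 3.58.1 in R 4.3.3 (lmFit, eBayes) with 1 model over 12 arrays, 3 groups and 9 residual degrees of freedom, adjusted by Benjamini-Hochberg over 14611 genes, 2-sided, after a test on simulated data. An array has no read depth, and the number of arrays sets the precision.

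Members and lists were chosen with earlier results of these data known. The named genes were, in each comparison, the 5 of each subunit with the smallest p, the 3 with the widest range, fixed genes of the stalk, the 5S particle and the kinase target Rps6, and tissue paralogs; Rpl13, Rpl37, Rpl27a and Rpl41 were also named for groups that do not overlap, and the clusters of Rps9, Rpl4 and Rpl13 and the genes Rpl6l, Rpl15, Rpl38 and Tpt1 after their values were seen. Alternatives were limma with trend and robust options, an ordinary linear model, median centring, repeated quantile normalisation, cyclic loess, other level filters, all rows, array weights, a replicate block and leaving out each array. Delivery of the oligonucleotides was not checked, and Mir223 itself has no single-symbol row.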

Additional observations from a re-analysis of the deposited data

Results flagged for a closer look

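Groups of 4 arrays were checked for 31 named ribosomal protein genes, the additional clusters and the subunit medians, 108 groups in all. Of these, 7 held 1 array far from the other 3, by Dixon's criterion at the 95% level. Chance alone marks about 1 group in 20, and many of these genes were picked by p or range in the same arrays. Pre-miR-223 replicate 2 was that array in 5 of the 7. It read 8.21 for Rps18 against 10.11 to 10.44 in the other pre-miR-223 arrays, and 7.48 for cluster 17513856 of Rpl13 against 9.01 to 9.26. It read 9.15 for Rps19 against 8.87 to 8.89, 6.29 for Rps27l against 5.75 to 5.81 and 8.95 for Rps3 against 8.48 to 8.52. So it stood below its group in Rps18 and this cluster of Rpl13 and above it in the other 3 genes. Anti-miR-223 replicate 3 read 5.48 for Rps27 against 4.94 to 5.01 in its group, and anti-miR-223 replicate 1 read 1.88 for Rpl39l against 2.25 to 2.28. All values are log2 signals.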

How the results depend on the processing

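No ribosomal protein gene passed the adjusted threshold under any alternative run. The lowest adjusted p among them in pre-miR-223 against scramble was 0.234 with array weights and 0.242 without pre-miR-223 replicate 2. Array weights gave 31 ribosomal protein genes at an unadjusted p under 0.05 in place of 13. Over all tested genes they gave 1884 in place of 711. Cyclic loess gave 6 such ribosomal protein genes, with 673 of all tested genes, and repeated quantile normalisation 7, with 715. Their medians were -0.14 and -0.16 for the large and -0.09 and -0.13 for the small subunit, against -0.01 and -0.03 over all tested genes. Cyclic loess turned the small subunit median of pre-miR-223 against anti-miR-223 to 0.0092, and it was 0.0039 or 0.0059 when pre-miR-223 replicate 4 or anti-miR-223 replicate 3 was left out. That of anti-miR-223 against scramble was 0.0003 when anti-miR-223 replicate 4 was left out, against -0.05 over all tested genes. Among the selected single-gene values followed through the alternatives 4 changed sign, all for Rps18 in anti-miR-223 against scramble. This Rps18 difference was 0.42 with array weights, and from -0.59 to 1.08 when single arrays were left out. Differences of other genes also changed sign when single arrays were left out, among them those of Rplp2 and Rpl11 given above. That of Rpl23a in anti-miR-223 against scramble went from -0.185 to 0.096 without anti-miR-223 replicate 4. The arrays carry replicate numbers, but only 4 of 12 same-number pairs correlated above 0.1 (r from -0.50 to 0.39). Pairs with different numbers had r from -0.40 to 0.52, and the numbers were not taken as pairs. A replicate block gave 10 ribosomal protein genes at an unadjusted p under 0.05 in pre-miR-223 against scramble, with 547 of all tested genes. It gave medians of -0.23 and -0.19 and 0 genes past the adjusted threshold. With 4 arrays a group, differences within about 0.33 log2 units of 0 could not be told from none for the median gene.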
